A study of Mus musculus with 10 samples.

Results

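Wnt proteins are secreted, lipid-modified signals, and Frizzled (Fzd) proteins are their cell-surface receptors. The Sfrp and Dkk families are secreted proteins known mainly for holding this signalling back. The genes described here are the rows of the deposited table of protein-coding genes whose symbol starts with Wnt, Fzd, Sfrp or Dkk followed by a digit, without Fzd3 and Fzd6. They were 35 of 22740 genes in the table: 19 Wnt, 8 Fzd, 4 Sfrp and 4 Dkk genes. The rule reads gene symbols and no measured value, but the group was proposed with earlier results of these data known.

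RNA was sequenced from the oesophagus of 10 C57BL/6 mice, all of which had received 4-NQO (4-nitroquinoline 1-oxide, a carcinogen that damages DNA and gives squamous tumours of the upper digestive tract). In 5 of them Grhl3, a transcription factor of the grainyhead family that acts in surface epithelia, is labelled as knocked out, and the tissue is labelled oesophageal tumour. The other 5 are labelled wild type and oesophageal tissue, while the design text describes tissue from tumours for either genotype. The title calls the knockout conditional, and the count columns of that group carry "L2Cre"; the sources used here name neither the promoter behind the Cre recombinase nor the ages of the mice nor the dose. Each library is named below by its group and the number in its title. Whether a wild-type library holds tumour is thus not settled by the labels, and genotype and kind of tissue cannot be told apart.

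Depth ran from 15.3 to 32.9 M counts per library (M for mega). Grhl3 itself stood at 135 to 317 CPM in Grhl3 KO and 109 to 363 CPM in wild type, where CPM is a library's counts per M after TMM scaling of its total, so the whole-gene count did not separate the groups and does not check the label. Basal and suprabasal keratinocyte genes were abundant in all libraries, with a mean of 10528 CPM for Krt5 and 16526 CPM for Krt13. The summed level of the skeletal muscle list ran from 1522 to 7461 CPM in Grhl3 KO and from 2220 to 4148 CPM in wild type. The summed level of the fibroblast list ran from 465 to 1097 CPM and from 555 to 842 CPM in the same order. Y-linked genes summed to 162 to 203 CPM in every Grhl3 KO library. In wild type 1028, 1048, 1528, 1555 and 1561 they summed to 154, 177, 0.0527, 0.0539 and 72.3 CPM. Wild type 1528 and 1555 were thus the low ones, with nearly no Y-linked RNA, and wild type 1561 lay in between. Y-linked RNA was therefore not balanced between the groups. Libraries numbered 1528, 1555 and 1561 are all wild type, and the number series 1026 to 1048 holds all Grhl3 KO libraries and wild type 1028 and 1048. In whole tissue, fewer cells of a type and less RNA per cell cannot be told apart.

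In the canonical branch of the pathway, a Wnt bound to a Frizzled and to Lrp5 or Lrp6 keeps beta-catenin from being degraded, and beta-catenin then acts with TCF/LEF factors on target genes. Other branches run through Frizzled or alternative receptors to small GTPases, JNK and calcium and shape cell polarity and movement. Sfrp proteins bind Wnts, most Dkk proteins block Lrp5 and Lrp6, and in stratified epithelia the canonical branch is known for its part in keeping basal cells dividing.

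Of the 35 genes, 26 had enough counts to be tested and 9 did not. With edgeR's quasi-likelihood test and Benjamini-Hochberg adjustment over 13731 genes, 0 of the 26 passed an adjusted p of 0.05, beside 11 genes or 0.0801% of all genes tested. DESeq2 and limma voom also called 0 members, with 1 (Fzd2) and 0 at an unadjusted p under 0.05. At an unadjusted p under 0.05 there was 1 member, Fzd2, which is 3.85% of the 26, and that share was 7.16% over all genes tested. Fzd2 was the 1 member on the lower side (3.72% of all genes), and 0 members were on the higher side (3.44%). In 0 of the 26 did the 2 groups fail to overlap, against 1.35% of all genes, 0.787% with Grhl3 KO higher and 0.568% with it lower. The fitted log2 fold change (Grhl3 KO minus wild type) was above 0 for 6 members and below 0 for 20, with a median of -0.11, while 49.7% of all genes tested lay above 0. Within the families, 5 Wnt genes were above 0 and 8 below, 0 and 8 Fzd genes, 0 and 3 Sfrp genes, and 1 and 1 Dkk genes. The 8 Fzd genes below 0 became 7 with limma voom and 5 without wild type 1528, so that library decides some of those directions. The 20 members below 0 became 14 with the number series as a covariate. In that fit 10 Wnt genes lay above 0 and 3 below, with a median of 0.16 against -0.07 in the main fit. The lean of the Wnt genes thus turned. The counts were the same within the libraries numbered 1026 to 1048, but that is no separate check. In either fit Grhl3 KO is in effect compared with wild type 1028 and 1048 alone, because the other number series is all wild type. No median or sign count over the members was tested. The p-values measure only the spread between these 10 samples.

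**Figure D1:**
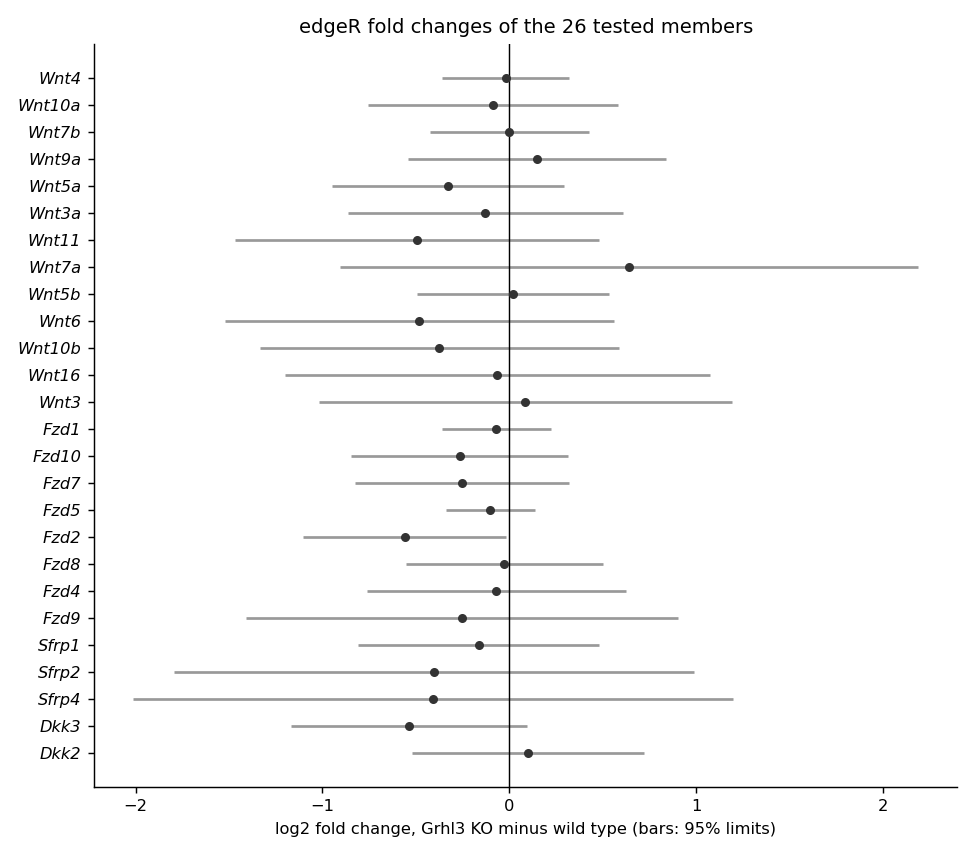
Log2 fold change of each of the 26 tested members (points, with 95% limits as bars), Grhl3 KO minus wild type from edgeR, grouped by family. The limits of 25 members include 0, and those of Fzd2 run from -1.10 to -0.01.

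The range of differences left by the data varied between members. The 95% limits of 15 members lay within a 2-fold change in either direction, 57.7% of the 26 against 79.7% of all genes tested. The limits of the other 11 reached beyond it: Wnt3, Wnt6, Wnt7a, Wnt10b, Wnt11, Wnt16, Fzd2, Fzd9, Sfrp2, Sfrp4 and Dkk3. For these a 2-fold change is not excluded, which depends on the estimate as well as on its error.

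Wnt4, a ligand known in epithelial development, was the most abundant ligand when counts were set against exon length. Wnt4 (ENSMUSG00000036856, GRCm38 chromosome 4, 137277489 to 137299726, plus strand) averaged 96.3 CPM per kb of exon over the 10 libraries, with a range of 63.8 to 115.6. Wnt10a, a ligand of skin, hair and tooth, averaged 49.5 CPM per kb, Wnt7b 15.6 and Wnt9a 7.87. By level per kb, Wnt4 came first and Wnt10a second in 10 of 10 libraries, and Wnt7b was next in 9. In wild type 1561 Wnt3a, at 13.0 CPM per kb, stood above Wnt7b at 11.4. Wnt9a exceeded Wnt5a in 4 libraries and Wnt5a exceeded Wnt3a in 6, so the levels per kb of Wnt9a, Wnt5a and Wnt3a, 7.87, 7.78 and 7.19 on average, could not be ordered. Wnt11 (2.29 CPM per kb), Wnt7a (1.18), Wnt5b (0.886), Wnt6 (0.754), Wnt10b (0.711), Wnt16 (0.655) and Wnt3 (0.383) followed.

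**Figure D2:**
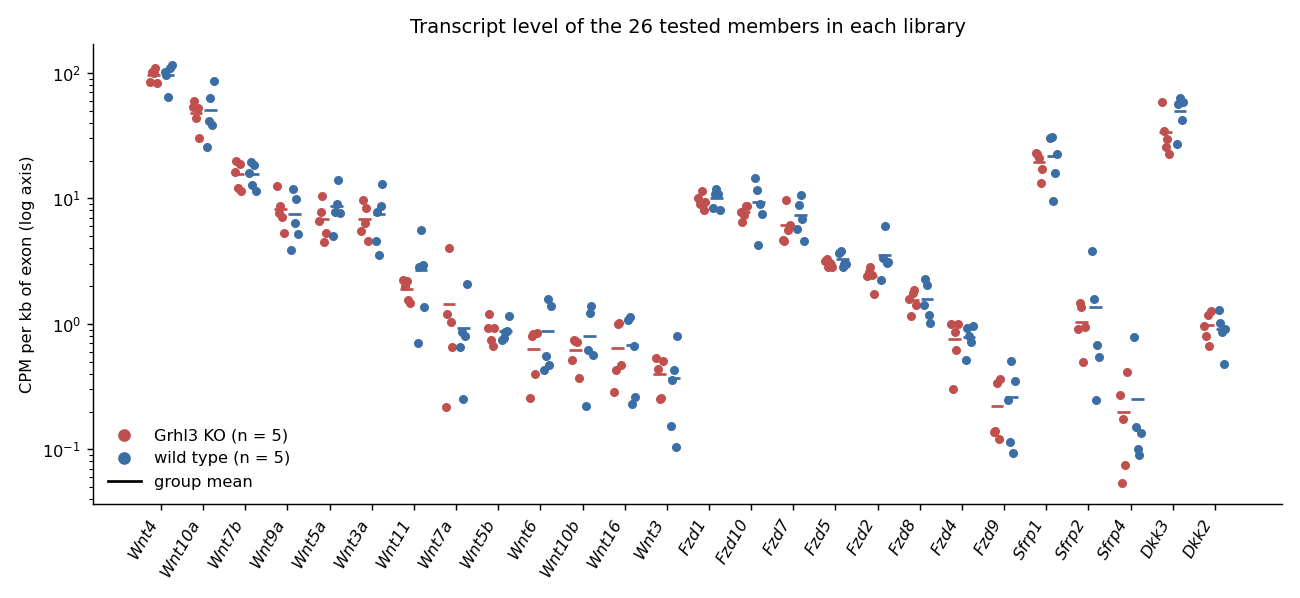
Level of the members in CPM per kb of exon (log axis), 1 point per library, coloured by group, with a line at each group mean. Wnt4, Dkk3, Sfrp1 and Fzd1 lead their families, and the points of both groups are interleaved for each of them.

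The Wnt ligand RNA was thus shared unequally. Of the per-kb sum of all Wnt genes, Wnt4 made up 50.7% on average, from 37.7% in wild type 1528 to 63.0% in wild type 1028. Its share was 51.2% ± 4.41 (SD, n = 5) in Grhl3 KO and 50.1% ± 9.24 (SD, n = 5) in wild type. Wnt10a took 25.5% and Wnt7b 8.27%. Wnt4, Wnt10a and Wnt7b together held between 80.5% and 89.0% in each library. Wnt4 was the leading ligand in every library of both groups, but in wild type 1528 only narrowly, at 37.7% against 37.4% for Wnt10a.

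**Figure D3:**
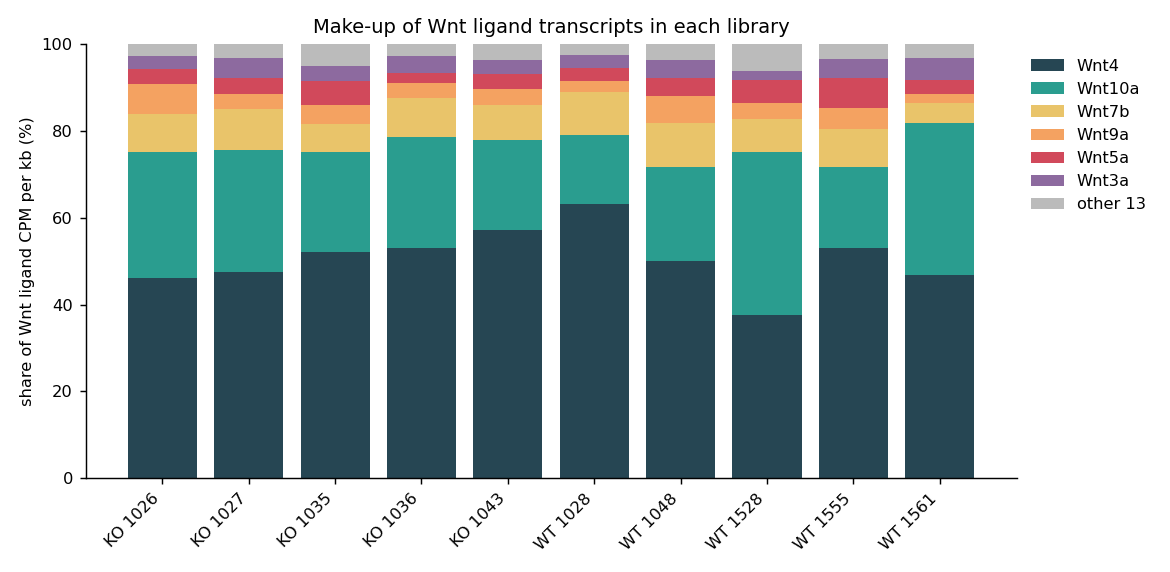
Share of the summed Wnt ligand level (CPM per kb of exon) taken by each ligand in each of the 10 libraries, in percent. Wnt4 is the widest segment, with its lowest share, 37.7%, in wild type 1528, where Wnt10a held 37.4%.

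Counts of Wnt4 gave 357, 423, 418, 461 and 347 CPM in Grhl3 KO 1026, 1027, 1035, 1036 and 1043. In wild type 1028, 1048, 1528, 1555 and 1561 Wnt4 stood at 422, 399.9, 268, 457 and 485 CPM. The groups overlapped throughout, and wild type 1528 was the lowest of all 10. The means were 401 ± 47.9 (SD, n = 5) and 406 ± 84.1 CPM (SD, n = 5), and the log2 fold change was -0.02 with 95% limits of -0.36 and 0.32 (edgeR adjusted p = 0.990).

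Wnt5a, a ligand best known for the branches that do not use beta-catenin, had the smallest p among the Wnt genes. Wnt5a (ENSMUSG00000021994, chromosome 14, 28504750 to 28527448) read 51.3, 60.7, 81.3, 35.4 and 41.1 CPM in Grhl3 KO and 38.9, 60.4, 70.0, 110.1 and 59.6 CPM in wild type, in the library order above. Wild type 1555 was the highest and Grhl3 KO 1036 the lowest, and the groups overlapped. The log2 fold change was -0.33 (SE 0.28) with limits of -0.95 and 0.29 (edgeR adjusted p = 0.878). The sign of Wnt5a turned when only the libraries numbered 1026 to 1048 were used, to 0.12.

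Wnt11, another ligand of the polarity branch, ran over a wide range in wild type, where its values were 2.92, 11.7, 23.0, 12.1 and 5.60 CPM. In Grhl3 KO, Wnt11 (ENSMUSG00000015957, chromosome 7, 98835112 to 98855195) read 9.31, 8.26, 9.13, 6.42 and 6.09 CPM. Wild type 1028 was the lowest and 1528 the highest of the 10, so the wild-type values enclosed those of Grhl3 KO. The log2 fold change was -0.49 (SE 0.44), with limits of -1.47 and 0.48 (edgeR adjusted p = 0.885), and it was 0.11 within the libraries numbered 1026 to 1048.

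Wnt11 and Wnt5b were the members whose promoter window held the TCF/LEF letters CTTTGAT, searched on both strands, the sequence through which beta-catenin's partners bind DNA. Windows of 300 bases, 250 before to 50 after the gene start, came from RefSeq (GRCm38.p6) for 25 of the 35 genes, as 28 windows. The stretches are shown because they are the matches, with the motif in capitals, read 5′ to 3′ on the gene's strand. Wnt11 lies at chr7:98835035-98835093 on the plus strand, with the motif on the opposite strand 51 to 45 bases before the start. Wnt5b lies at chr6:119449425-119449483 on the minus strand, with the motif on the gene's strand 71 to 65 bases before the start. That start is 1 of 3 RefSeq starts of Wnt5b. It lies inside the gene as annotated by GENCODE (chromosome 6, 119432531 to 119544347), far from its 5′ end. The Wnt11 start with the match is 1 of 2 RefSeq starts of that gene and is the annotated 5′ end.
Wnt11: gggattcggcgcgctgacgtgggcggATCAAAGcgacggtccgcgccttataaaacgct
Wnt5b: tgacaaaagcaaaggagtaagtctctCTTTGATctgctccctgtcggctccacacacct
The motif was found in 2 of the 28 member windows (7.14%) and in 1225 of all 32851 windows (3.73%). AACCGGTT, the palindrome that grainyhead factors bind, was found in 0 of the 28 and in 48 of all windows (0.146%). Windows for Dkk3, Dkk4, Fzd2, Fzd8, Sfrp1, Sfrp4, Wnt5a, Wnt7b, Wnt8a and Wnt10a were not matched. A match is a description of these letters and not of binding.

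Wnt7b, an epithelial ligand, differed least: its wild-type and Grhl3 KO values covered nearly one range, from 56.0 to 96.7 CPM in Grhl3 KO and from 56.0 to 95.3 CPM in wild type, and its log2 fold change was 0.00 (edgeR adjusted p = 0.999). Wnt10a ran from 74.7 to 147 CPM in Grhl3 KO and from 62.8 to 214 CPM in wild type, with a log2 fold change of -0.09. The sign of each of these ligands and of those that follow turned in at least 1 alternative. Of the other tested ligands, Wnt3, Wnt5b, Wnt7a and Wnt9a had fitted values of 0.09, 0.02, 0.64 and 0.15, and Wnt3a, Wnt6, Wnt10b and Wnt16 had -0.13, -0.48, -0.37 and -0.07 on the log2 scale. Wnt7a was the most variable member, with an 18.6-fold range over the 10 libraries.

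Among the 8 receptors covered by the rule, Fzd1, Fzd10 and Fzd7 were the most abundant per length on average. Fzd1 (ENSMUSG00000044674, chromosome 5, 4753839 to 4758035) averaged 9.77 CPM per kb, Fzd10 8.59, Fzd7 6.74 and Fzd5 3.15. Fzd1 exceeded Fzd10 in 7 libraries and Fzd10 exceeded Fzd7 in 8, so these neighbours were not ordered in every library, whereas Fzd7 exceeded Fzd5 in all 10. Fzd2 (2.98 CPM per kb) was close to Fzd5 on average and exceeded Fzd10 in wild type 1528 (5.99 against 4.27 CPM per kb). It stood above Fzd8 (1.57), Fzd4 (0.768) and Fzd9 (0.241), an order from Fzd2 down that held in all 10. Fzd1, Fzd10, Fzd7 and Fzd5 held 76.0% to 88.0% of the per-kb sum of these 8 Fzd genes in each library. Fzd3 and Fzd6 are outside the rule, so neither the order nor the shares describe the whole Frizzled family.

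Fzd2, a receptor that can pass on Wnt5a signals, was the member with an unadjusted p under 0.05. Fzd2 (ENSMUSG00000050288, chromosome 11, 102604396 to 102608058) read 8.87, 9.47, 10.4, 8.94 and 6.33 CPM in Grhl3 KO and 8.11, 12.3, 21.9, 11.3 and 11.5 CPM in wild type. The groups overlapped only through wild type 1028, and wild type 1528 was the highest of the 10. The means were 8.81 ± 1.52 (SD, n = 5) against 13.0 ± 5.24 CPM (SD, n = 5), and the log2 fold change was -0.56 (SE 0.25), a fold of 0.679. The edgeR p was 0.0450 before adjustment and 0.692 after it. Leaving out wild type 1528 moved the value to -0.29, and within the libraries numbered 1026 to 1048 it was -0.21.

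Fzd10, a receptor of the beta-catenin branch, read 25.3, 21.0, 24.0, 28.3 and 28.4 CPM in Grhl3 KO and 47.0, 37.6, 13.9, 29.5 and 24.5 CPM in wild type. The wild-type values of Fzd10 (ENSMUSG00000081683, chromosome 5, 128600844 to 128604093) enclosed those of Grhl3 KO, with the lowest in wild type 1528 and the highest in wild type 1028. The log2 fold change was -0.27 (SE 0.26) with limits of -0.85 and 0.31 (edgeR adjusted p = 0.898). Without wild type 1528 the value was -0.45, and within the libraries numbered 1026 to 1048, where wild type has 2 libraries, it was -0.74 (adjusted p = 0.475 in edgeR, 0.00114 before adjustment). That alternative is 1 of 23, over which no member had an adjusted p below 0.404.

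Fzd1 read 42.1, 37.5, 47.7, 33.7 and 39.0 CPM in Grhl3 KO and 35.3, 45.6, 50.0, 45.3 and 33.7 CPM in wild type. The groups overlapped over most of their range. Its log2 fold change was -0.07 (SE 0.13), with limits of -0.36 and 0.22 (edgeR adjusted p = 0.958). Of the remaining receptors, Fzd7, Fzd5, Fzd9, Fzd4 and Fzd8 had values of -0.25, -0.10, -0.25, -0.07 and -0.03 on the log2 scale, and the signs of Fzd9, Fzd4 and Fzd8 turned in at least 1 alternative. Fzd5 was the steadiest member, with a 1.35-fold range over the 10 libraries and limits of -0.34 and 0.14.

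Of the antagonists that bind Wnts, Sfrp1 made up 85.6% to 96.9% of the per-kb Sfrp sum in each library. Sfrp1 (ENSMUSG00000031548, chromosome 8, 23411502 to 23449632) averaged 20.6 CPM per kb, Sfrp2 1.20 and Sfrp4 0.224, an order that held in all 10 libraries. Sfrp1 read 101, 99.1, 92.0, 58.3 and 74.6 CPM in Grhl3 KO and 132, 134, 41.5, 69.8 and 97.9 CPM in wild type. Wild type 1528 was the lowest of the 10 and wild type 1048 the highest, so the groups overlapped. The log2 fold change was -0.16 (SE 0.29), with limits of -0.81 and 0.48 (edgeR adjusted p = 0.954). Within the libraries numbered 1026 to 1048 it was -0.65 (edgeR adjusted p = 0.716).

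Sfrp2, a family member often made by stromal cells, read 1.95, 3.14, 2.92, 1.06 and 2.03 CPM in Grhl3 KO and 8.20, 3.37, 0.527, 1.46 and 1.18 CPM in wild type. Wild type 1028 alone exceeded 8 CPM and wild type 1528 was the lowest. For Sfrp2 (ENSMUSG00000027996, chromosome 3, 83766321 to 83774316) the log2 fold change was -0.40 (SE 0.63), with limits of -1.80 and 0.99 (edgeR adjusted p = 0.947), which became 0.44 without wild type 1028 and -1.37 within the libraries numbered 1026 to 1048. Sfrp4 was under 1 CPM in all wild-type libraries but 1028, which stood at 3.25 CPM, and its log2 fold change was -0.41.

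Dkk3 is a divergent Dkk protein that is not a standard blocker of Lrp5 and Lrp6. Its gene was the most abundant of the Sfrp and Dkk genes per length on average. Dkk3 (ENSMUSG00000030772, chromosome 7, 112116017 to 112159057) averaged 41.7 CPM per kb against 0.946 for Dkk2. It exceeded Sfrp1 per kb in 9 of 10 libraries, and in wild type 1028 Sfrp1 was higher (30.3 against 27.2 CPM per kb). Dkk3 read 196, 115, 85.9, 99.5 and 75.7 CPM in Grhl3 KO and 91.2, 190.3, 210.0, 141 and 197 CPM in wild type. In Grhl3 KO only 1026 lay among the 4 high wild-type libraries, and in wild type only 1028 lay among the 4 low Grhl3 KO libraries, so the groups overlapped through 1 library each. The means were 114 ± 47.9 and 166 ± 49.3 CPM (SD, n = 5 each). The log2 fold change was -0.54 (SE 0.29), with limits of -1.17 and 0.09; the edgeR p was 0.0871 and the adjusted p 0.759. Within the libraries numbered 1026 to 1048 it was -0.30, and without Grhl3 KO 1026 it was -0.82 (edgeR adjusted p = 0.438).

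Dkk3 followed the basal keratinocyte markers across libraries. The markers are 11 genes of the basal layer, such as Krt5, Krt14 and Trp63. In the comparison of the groups 10 of them had a value below 0 (median -0.27). In edgeR, DESeq2 and limma voom alike 0 passed after adjustment and 2 had an unadjusted p under 0.05. In edgeR that was 18.2%, against 7.16% of all genes tested. The mean log2 CPM of these markers was 8.83 ± 0.262 (SD, n = 5) in Grhl3 KO and 9.19 ± 0.246 (SD, n = 5) in wild type. Their summed level ran from 27859 to 36881 CPM and from 31093 to 40567 CPM in the same order. Other cell type lists also leaned to one side in the comparison of the groups. The suprabasal keratinocyte list had 10 of 12 genes below 0, with 0 past the adjusted edgeR threshold (DESeq2 called 1, limma voom 0). In that list 4 genes had an unadjusted edgeR p under 0.05, which is 33.3%, against 7.16% of all genes tested. The skeletal muscle list had 17 of 17 tested genes above 0 (median 0.55). In edgeR 0 passed the adjusted threshold and 0 had an unadjusted p under 0.05. DESeq2 and limma voom also called 0 after adjustment, with 2 and 0 at an unadjusted p under 0.05. With the skeletal muscle score as a covariate the log2 fold change of Dkk3 was -0.52, and the part of the suprabasal list was not tested. Pearson's r with log2 CPM of Dkk3 was 0.912 (permutation p = 8.0e-05, adjusted 0.0104 over 130 relations) and Spearman's rho was 0.879 (permutation p = 0.0016, adjusted 0.208). Without the 2 libraries farthest from the median of the marker score, wild type 1048 and Grhl3 KO 1043, r was 0.943 (exact permutation p = 0.000397, adjusted 0.0516). Within the 7 libraries numbered 1026 to 1048 it was 0.922 (exact permutation p = 0.00198, adjusted 0.0838). With that marker score as a covariate, an alternative added after the data were seen, the log2 fold change of Dkk3 was 0.07. The score differed between the groups and went with Dkk3, so this fit cannot tell marker level from genotype. What part basal cell content has in the Dkk3 difference was not tested.

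**Figure D4:**
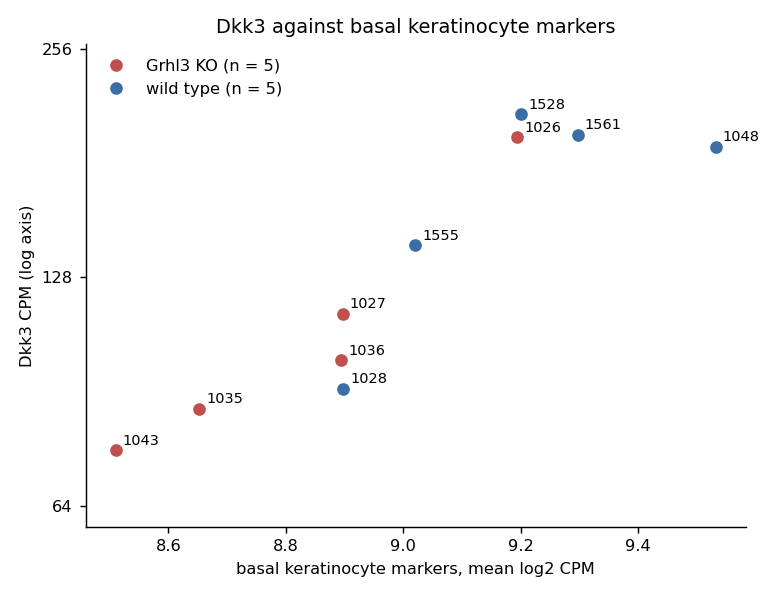
Dkk3 in CPM (log axis) against the mean log2 CPM of the 11 basal keratinocyte markers, 1 point per library, coloured by group. The points climb together (r = 0.912), with Grhl3 KO between 8.51 and 9.19 and wild type between 8.90 and 9.53 on the marker axis.

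This was 1 of 130 relations computed, 26 members by 5 marker lists, and the single one with an adjusted Pearson p under 0.05; 0 had an adjusted Spearman p under 0.05. Before adjustment 11 had a Pearson p under 0.05. Dkk2, a Dkk that can block or support signalling depending on its partners, gave r = 0.737 and rho = 0.806 with the fibroblast markers (permutation p = 0.0122 and 0.00735, adjusted 0.426 and 0.395). Sfrp2 and Sfrp4 gave r = 0.698 and 0.699 with the same markers, and both failed the adjustment. With the smooth muscle markers Sfrp2 and Sfrp4 gave r = 0.727 and 0.707, which failed it too. By r over all libraries neither list stood out for them. Without the 2 libraries farthest from the median of each score, Sfrp4 gave 0.301 with the smooth muscle and 0.837 with the fibroblast markers. Sfrp2 gave 0.680 and 0.727 in the same order, and all of these failed the adjustment. The smooth muscle value leaves out wild type 1028, the highest library for Sfrp4. Within the number series that holds all Grhl3 KO libraries the order turned, with 0.777 and 0.663 for Sfrp4. Wnt6 (-0.721), Fzd10 (0.685), Wnt10a (-0.668) and Sfrp1 (0.637) also had an unadjusted Pearson p under 0.05 with the smooth muscle markers. Wnt10a had one with the fibroblast markers as well (-0.637), and all of these failed the adjustment. The fibroblast list had 13 of 16 genes above 0 in the comparison of the groups. In edgeR, DESeq2 and limma voom alike, 0 of the 16 passed the adjusted threshold and 1 had an unadjusted p under 0.05. In edgeR that was 6.25%, near the 7.16% of all genes tested. The smooth muscle list had 7 of 10 below 0. The part of these 2 lists in the values of Dkk2, Sfrp2 and Sfrp4 was not tested beyond the fibroblast covariate.

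Dkk2 (ENSMUSG00000028031, chromosome 3, 132085292 to 132180304) read 3.59, 2.98, 4.39, 2.48 and 4.72 CPM in Grhl3 KO and 4.76, 3.79, 3.16, 1.78 and 3.39 CPM in wild type. Each group held high and low libraries, and the log2 fold change was 0.10 (SE 0.28) with limits of -0.52 and 0.72 (edgeR adjusted p = 0.976). Its sign turned under several alternatives, so no direction can be read.

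The 9 members under the count filter were near or at 0. Dkk1, the best-known blocker of Lrp5 and Lrp6, and Dkk4 and Wnt8b had 0 counts in all 10 libraries, which allows a level of up to 0.189 CPM, or 3 counts, in the shallowest library. Wnt1 and Wnt8a had 1 count each over all libraries. Wnt2 had 12 counts over the 10 libraries, Wnt9b 28, Wnt2b 39 and Sfrp5 40. Sfrp5 counts were 0, 1, 0, 0 and 4 in Grhl3 KO and 21, 2, 1, 10 and 1 in wild type, so the groups overlapped through Grhl3 KO 1043. With no filter on low counts Sfrp5 was tested and gave a log2 fold change of -2.81 (adjusted p = 0.694 in edgeR, 0.0325 before adjustment). Limits from a count of 0 cover counting error only.

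Wild type 1528 stood apart from the rest across the members. It held the highest or lowest of the 10 values for 14 of the 26 tested members, 53.8%, while it did so for 26.3% of all genes tested. It was highest for Dkk3, Fzd1, Fzd2, Fzd7, Fzd9, Wnt6 and Wnt11 and lowest for Fzd5, Fzd10, Sfrp1, Sfrp2, Wnt3a, Wnt4 and Wnt16. Wild type 1028 was extreme for 8 members (30.8% against 28.4% of all genes), being highest for Dkk2, Fzd10, Sfrp2 and Sfrp4. Wild type 1028 was the lowest for Wnt9a, Wnt10a, Wnt10b and Wnt11.

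**Figure D5:**
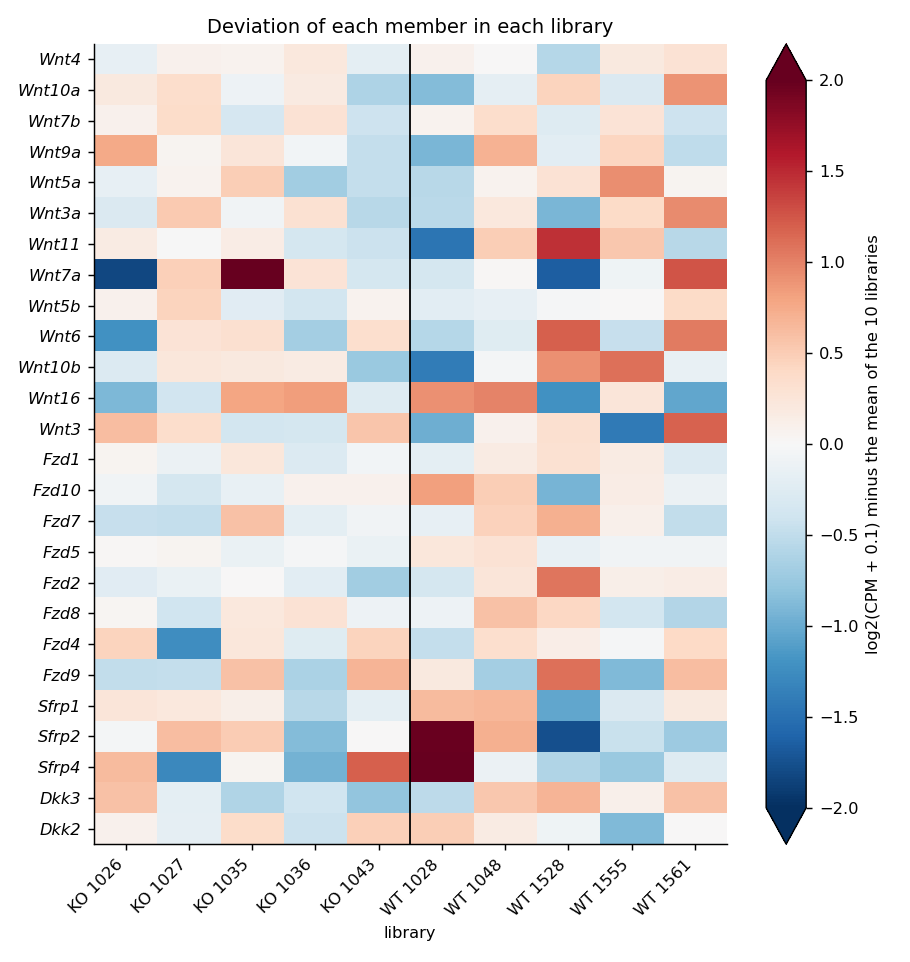
Deviation of each tested member from its mean over the 10 libraries, in log2(CPM + 0.1), with members in rows and libraries in columns and the colour scale limited to 2 in either direction. Wild type 1528 holds the highest or lowest value for 14 of the 26 members.

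The rest of the pathway was read from 7 lists of 83 genes, of which 72 were tested: 34 lay above 0 and 38 below, 0 passed the adjusted edgeR threshold (DESeq2 and limma voom also called 0, with 8 and 3 at an unadjusted p under 0.05), and the median log2 fold change was -0.03. At an unadjusted p under 0.05 there were 6, which is 8.33%, beside 7.16% for all genes. The co-receptors and alternative receptors had 2 above 0 and 5 below, led by Tpbg (-0.40), which acts as a Wnt inhibitor at the cell surface, and Ryk (-0.13). Lrp5 and Lrp6, the co-receptors of the canonical branch, averaged 132 and 70.9 CPM in Grhl3 KO and 119 and 74.8 CPM in wild type. All 7 genes of Wnt release and lipid modification lay below 0 (median -0.66), but Wls (-0.04) and Gpc3 (-0.01) barely did. Among the 7 were Gpc6, a surface proteoglycan (-1.39, edgeR adjusted p = 0.622), and Porcn, which attaches the lipid to Wnts (-0.81, edgeR adjusted p = 0.688). Without wild type 1528, 5 of the 7 lay below 0 and 2 above (median -0.11), with Gpc6 at -0.70, Porcn at -0.48 and Notum, another of the 7, at 1.09.

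The beta-catenin core gave 11 above 0 and 10 below (median 0.02), led in p by Amer1, a scaffold of beta-catenin breakdown (-0.32), and Ctnnbip1, a beta-catenin inhibitor (-0.44, edgeR adjusted p = 0.724). Ctnnb1, beta-catenin itself, stood at 975 ± 54.8 (SD, n = 5) and 925 ± 127 CPM (SD, n = 5), a log2 difference of 0.08. Of 13 tested target genes, which the pathway can switch on, 5 lay above 0 and 8 below (median -0.09). Some of them, such as Ccnd1, Myc and Cd44, are not specific to this pathway. In edgeR 2 of the 13 had an unadjusted p under 0.05, which is 15.4%, against 7.16% of all genes tested. Ccnd1, a cyclin of the cell cycle, averaged 217 ± 33.4 against 347 ± 133 CPM (SD, n = 5 each; log2 -0.68, edgeR adjusted p = 0.524). Axin2, the usual readout of the canonical branch, averaged 7.10 ± 1.19 against 9.33 ± 1.36 CPM (SD, n = 5 each; log2 -0.39, edgeR adjusted p = 0.668). The non-canonical effectors had 12 above 0 and 4 below (median 0.09), led by Prkca (0.26) and Camk2d (0.23).

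The R-spondin list held the R-spondins, which keep Frizzled receptors at the surface, the receptors of R-spondins, and the Frizzled-degrading ligases Znrf3 and Rnf43. It had 2 above 0, the ligases Znrf3 (0.05) and Rnf43 (0.06), and 3 below, Lgr6, Rspo1 and Lgr4 (-0.07). Lgr6, an R-spondin receptor, read 0.276 to 1.32 CPM in Grhl3 KO and 0.141, 0.632, 29.7, 2.86 and 1.60 CPM in wild type (log2 -3.56, edgeR adjusted p = 0.520), so wild type 1528 alone carried most of the signal, and without it the value was -1.14. Rspo1 had -1.07. Among the other modulators, Sostdc1, a secreted inhibitor, read 8.71 to 21.8 CPM in Grhl3 KO and 10.3, 14.4, 194, 16.8 and 86.4 CPM in wild type (log2 -1.97, edgeR adjusted p = 0.643), and -0.96 without wild type 1528. Nkd1 had -0.59. Notum, which removes the lipid from Wnts, and Bambi, a target gene, were chosen after their values were seen. For these, wild type 1528 stood at 36.1 and 75.1 CPM, and the next highest library at 3.20 and 15.7. Without wild type 1528 Notum turned from -2.56 to 1.09 on the log2 scale and Bambi moved from -1.45 to -0.32. Ccnd1 and Axin2 were -0.53 and -0.36 without it.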

How the data were processed

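The authors deposited 1 table of raw counts for 22740 protein-coding genes in 10 libraries, whole numbers that were not normalized. The submitters' processing notes name featureCounts and GRCm38; the sources used here give no aligner, annotation release or featureCounts version. According to the labels' protocols RNA came from the RNeasy Micro kit and libraries from TruSeq stranded mRNA, and the table is named as reverse-stranded counts. How reads matching several genes were treated is not given. A blastn 2.17.0 search found a near-identical stretch on the same strand in 2 of the 35 members: 10.2% of the Wnt4 transcript, a repeat, and 4.00% of Dkk1.

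Columns were joined to the labels by sample number; 0 other sample columns and 0 rows naming no gene were present. Genes were kept with filterByExpr (minimum count 10, minimum total 15), leaving 13731, scaled by TMM and tested with edgeR 4.0.16 (R 4.3.3, quasi-likelihood, robust, Benjamini-Hochberg over all genes). DESeq2 1.42.0, limma 3.58.1, other scalings and filters, covariates and leaving out each library were the alternatives. CPM per kb divides by the union of GENCODE exons. For log2 CPM a prior count of 2 was used. The test was checked on simulated data. The members and lists were chosen with earlier results of these data known. Values in every library are printed for members with an unadjusted p under 0.05, the 2 of smallest p in each family and the most abundant per kb; of each pathway list the 2 of smallest p are named. Correlations used 100000 permutations, or all of them for 7 or 8 libraries, with log2 CPM of a member against the mean log2 CPM of a list.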

Additional observations from a re-analysis of the deposited data

Results flagged for a closer look

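Sfrp4 in wild type had 1 library far from the others: wild type 1028 stood at 3.25 CPM, and the next highest at 0.632 CPM. Without it the log2 fold change of Sfrp4 went from -0.41 to 0.65. Wnt7a in Grhl3 KO had 1 library far from the others too: Grhl3 KO 1035 stood at 12.9 CPM and the next at 3.78 CPM. Without it the log2 fold change of Wnt7a went from 0.64 to -0.24. These were 2 of 52 groups examined (26 members in 2 groups), and chance marks about 1 in 20 groups.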

How the results depend on the processing

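There were 23 alternatives, 2 of them added after the data were seen (leaving out both wild-type libraries low in Y-linked genes, and the basal keratinocyte score as a covariate). In all of them 0 members passed the adjusted threshold. The 11 genes called among all genes were 119 with DESeq2, 1 with limma voom, 7 with no filter, 1 with the number series as a covariate, 1 within libraries 1026 to 1048, 1 with the Y-linked score, 1 with the fibroblast score and 1 without both low-Y libraries; leaving out 1 library gave 1 to 16. The 1 member at an unadjusted p under 0.05 was 0 with limma voom, 2 with no filter (Fzd2 and Sfrp5), 4 with the number series, 4 within libraries 1026 to 1048, 2 with the Y-linked score, 0 with the fibroblast, 0 with the skeletal muscle and 0 with the basal score, and 2 without both low-Y libraries; leaving out 1 library gave 0 to 2. In the number-series fit these were Fzd10, Fzd5, Sfrp1 and Sfrp2, with log2 fold changes of -0.74, -0.30, -0.65 and -1.37. The sign turned in at least 1 alternative for 21 of the 26 tested members, among them Wnt10a (up to 0.53), Wnt10b (up to 0.57) and Wnt6 (up to 0.36). Of the 10 members given by library, on the log2 scale it turned for Dkk2 (-0.24 with the number series and within it, -0.19 Y-linked, -0.030 fibroblast, -0.0066 skeletal muscle, -0.066 basal, -0.13 without both low-Y libraries, and -0.071 to 0.25 leaving out 1 library), Dkk3 (0.071 basal), Fzd1 (0.074 Y-linked, 0.068 without both low-Y libraries, -0.14 to 0.0016 leaving out 1), Sfrp2 (0.14 limma voom, -0.67 to 0.44 leaving out 1), Wnt11 (0.11 with the number series and within it, 0.26 Y-linked, 0.22 without both low-Y libraries), Wnt4 (0.0017 skeletal muscle, -0.14 to 0.053 leaving out 1) and Wnt5a (0.12 with the number series and within it, 0.088 Y-linked, 0.027 without both low-Y libraries). Their cause was not tested. Fzd2, Fzd5, Fzd7, Fzd10 and Sfrp1 kept their sign in every alternative. The relation of Dkk3 to the basal markers was no longer past the adjusted threshold with 8 libraries (r = 0.943) or 7 (r = 0.922); fewer libraries were used there. No paired analysis was possible because the groups share no sample number. Depth limits the members under 5 CPM, 10 of those tested.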

Other observations

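The coefficient of variation of CPM was larger in wild type than in Grhl3 KO for 20 of the 26 tested members (76.9%), and for 66.6% of all genes tested. No test of that difference was run.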
